A study of Homo sapiens with 2 samples.

Results

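The lysosomal hydrolases and membrane proteins were followed as 36 genes chosen by symbol and not by a threshold on their values, in poly(A) RNA of HuH6 cells. HuH6 is a line of human hepatoblastoma, a liver tumour of early childhood. The 2 groups were unedited cells (HuH6_WT) and cells edited with CRISPR/Cas9 to knock out the kinase gene PIM3 (PIM3_KO), both untreated and grown in the same medium with fetal bovine serum, with 1 library each. Whether the edited cells were a single clone is not given in the sources used here. With 1 library per group no difference has a replicate check, no test between the conditions was possible, and other differences between the 2 cultures cannot be told apart from the PIM3 edit. Of the 36 genes, 29 were found by symbol in 30 rows of the table, among 53139 symbols with 1 row of their own. CTSB occupied 2 rows. The other 7, CTSD, TPP1, IDS, NAGLU, GLB1, HEXA and MCOLN1, stood only in rows that join several neighbouring genes. This left 28 members with exactly 1 row, of which 26 had a mean of at least 1 FPKM (sequenced fragments divided by transcript length in kilobases and by library size) and are called measured here. CTSS and LIPA were below that level.

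The lysosome is the acidic compartment in which cells break down proteins, sugar chains and lipids that arrive by endocytosis or autophagy. Its soluble enzymes are made in the endoplasmic reticulum, tagged with mannose 6-phosphate and carried there by receptors, while heavily glycosylated proteins such as LAMP1 and LAMP2 line its membrane. Transcription factors of the MiT/TFE family, chiefly TFEB and TFE3, act on many of these genes through a promoter sequence known as the CLEAR element, which contains the letters CACGTG. Inherited loss of many of the enzymes causes a lysosomal storage disease. Hepatocytes are rich in lysosomes and use them in the turnover of glycogen, lipid and glycoproteins.

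The CLEAR-type letters of these promoters are shown as sequence that some of the members hold. Since the CLEAR element is known from lysosomal genes, a higher share among the members is no independent result. RefSeq promoters (GRCh38.p14), from 250 bases before to 50 after a listed start, were found for 26 of the 36 members. The letters CACGTG, which read the same on both strands, occurred in 9 of these, ARSB, CD63, CTSA, CTSD, CTSF, GAA, GALNS, LAMP1 and MCOLN1, or 34.6%. Of all 27305 symbols with a promoter, 8.77% held them, and of 8085 measured genes 12.7%. The same letters with GT directly before and AC directly after them, the full CLEAR palindrome of 10 letters, occurred in GAA, GALNS and MCOLN1, 11.5% of the members against 0.421% of all symbols and 0.915% of measured genes. A symbol counted when any of its listed starts held the letters, and CD63 had 8 starts and ARSB 2. A match is a description of the letters and not evidence of binding. In the lines that follow, each on its gene's own strand from 5′ to 3′, capitals mark CACGTG and the adjoining letters that match the full palindrome. GAA and GALNS show the full form, CTSA and CTSD shorter ones.
GAA, chr17:80101493-80101522, plus strand, capitals from 78 bases before the start: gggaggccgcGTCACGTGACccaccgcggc
GAA, chr17:80101538-80101567, plus strand, capitals from 33 bases before the start: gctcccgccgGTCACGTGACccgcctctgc
GALNS, chr16:88857104-88857133, minus strand, capitals from 176 bases before the start: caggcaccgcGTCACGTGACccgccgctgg
CTSA, chr20:45891298-45891327, plus strand, capitals from 26 bases before the start: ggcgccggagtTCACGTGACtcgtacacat
CTSD, chr11:1763957-1763986, minus strand, capitals from 47 bases before the start: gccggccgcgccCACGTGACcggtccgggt
LAMP1 held 6 copies of CACGTG in 1 promoter. The stretch of 74 bases that follows is shown because it carries 4 copies of CACGTG preceded by GT, in capitals, spaced 16, 17 and 17 bases apart.
LAMP1, chr13:113297037-113297110, plus strand: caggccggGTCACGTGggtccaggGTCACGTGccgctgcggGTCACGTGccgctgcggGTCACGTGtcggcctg

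PIM3 itself stood at 34.2 FPKM in the parental library and 14.0 FPKM in the edited one, which is 41.1% of it. Of its 20 nearest measured coding genes 17 were lower as well, with a median log2 ratio of -0.55 beside the -1.23 of PIM3. Small Cas9 insertions or deletions can leave a transcript in place, so this level does not show whether protein was made. The spacing of low values implied normalisation totals of about 28.4 M and 22.2 M reads. The FPKM columns summed to 787250 and 1086211, so rescaling both to the same total (TPM) moved the median log2 ratio of all measured genes from 0.01 to -0.40. Directions given here are on the deposited FPKM scale. Rescaling changed the sign for 11 of the 26 measured members and for some genes outside them, and not every such change is named. Of 11 hepatoblastoma and hepatocyte markers with 1 row, 10 were measured, with EPCAM at 797 and 1035 FPKM and GPC3 at 694 and 607 FPKM, while DLK1 was listed at 0 in each library. Of the 10, 4 were at least 2-fold higher in PIM3_KO and 0 lower, beside 6.89% and 4.59% of all measured genes. AFP measured 1.19 and 70.1 FPKM, TTR 270 and 2232 FPKM, ALB 0.520 and 9.18 FPKM and APOA1 5201 and 12109 FPKM. In TPM APOA1 was no longer past 2-fold, which left 3 markers higher, beside 2.87% of all measured genes. The part of this difference between the cultures in the lysosomal values was not tested. Of the markers of other cells, 0 of 6 endothelial, 2 of 7 leukocyte and macrophage and 3 of 7 fibroblast genes reached a mean of 1 FPKM.

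On the FPKM scale most lysosomal genes measured much the same in the parental and the knockout library. The log2 ratio (PIM3_KO against HuH6_WT, each as FPKM + 1) was positive for 14 and negative for 12 of the 26 measured members, and its median was 0.01, the same as over all 11253 measured genes. Negative ratios made up 49.0% of all measured genes. None of the 26 was at least 2-fold higher in PIM3_KO, a threshold that 6.89% of all measured genes passed. The cathepsin gene CTSZ was at least 2-fold lower, as were 4.59% of all measured genes. Ratios between -0.5 and 0.5 were held by 21 members, 80.8%, against 59.7% of all measured genes. With a minimum mean of 5 FPKM the shares were 82.6% and 60.2%. These shares describe the 2 libraries and were not tested. In TPM the median of the members was -0.43, close to the common shift of -0.40, and 23 of the 26 were negative, as were 73.9% of all measured genes. In that scale 0 members were 2-fold higher (2.87% of all measured genes) and 3, CTSZ, CTSL and LAMP2, were 2-fold lower (14.4% of all). Within 0.5 of equality were 15 members in TPM, 57.7%, against 48.9% of all measured genes, and within 0.5 of the common shift 20 members, 76.9%, against 60.1%. CD63, GLA and CTSC kept a positive TPM ratio, of 0.36, 0.18 and 0.01.

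**Figure D1:**
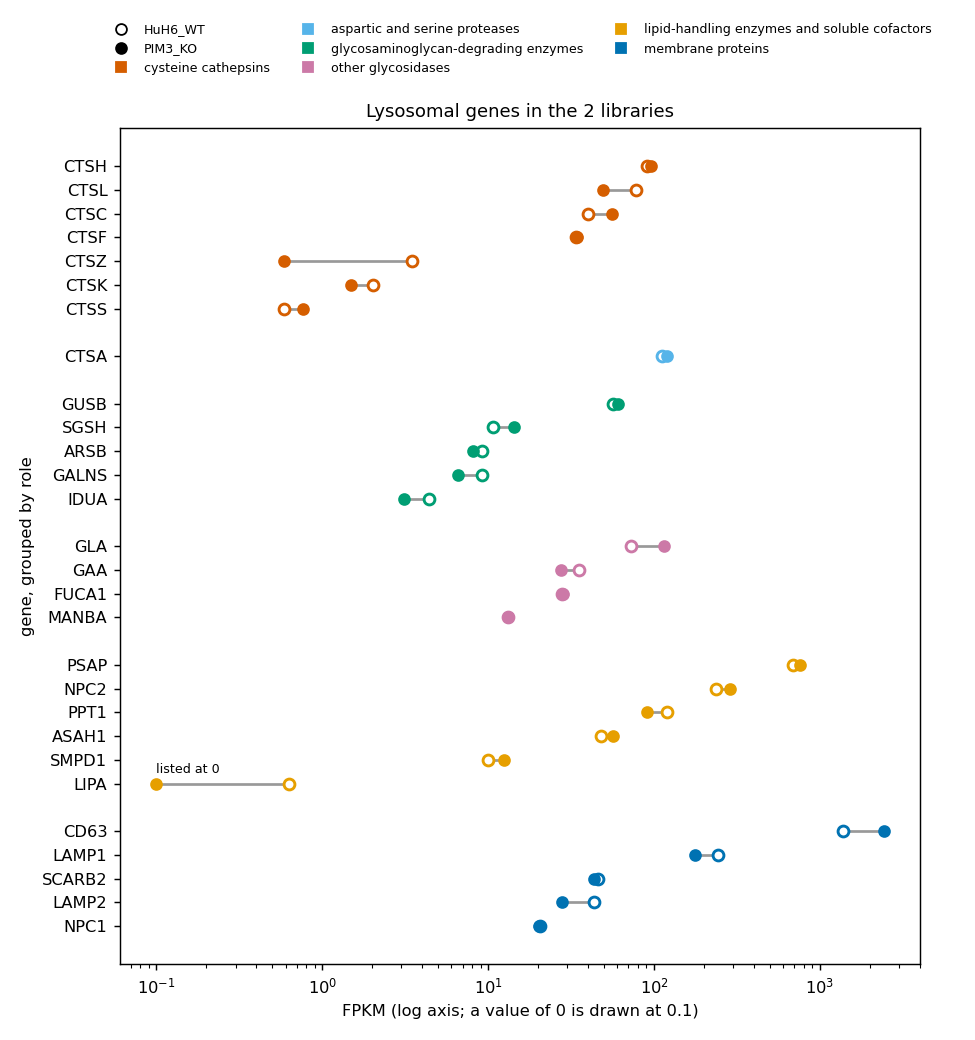
FPKM of the 28 members with 1 row, grouped by role, on a log axis, with open circles for HuH6_WT and filled circles for PIM3_KO (1 library each, so no error bars). Most pairs nearly coincide, while CTSZ lies apart at 3.46 and 0.587 FPKM and LIPA at 0.629 FPKM and a listed 0.

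**Figure D2:**
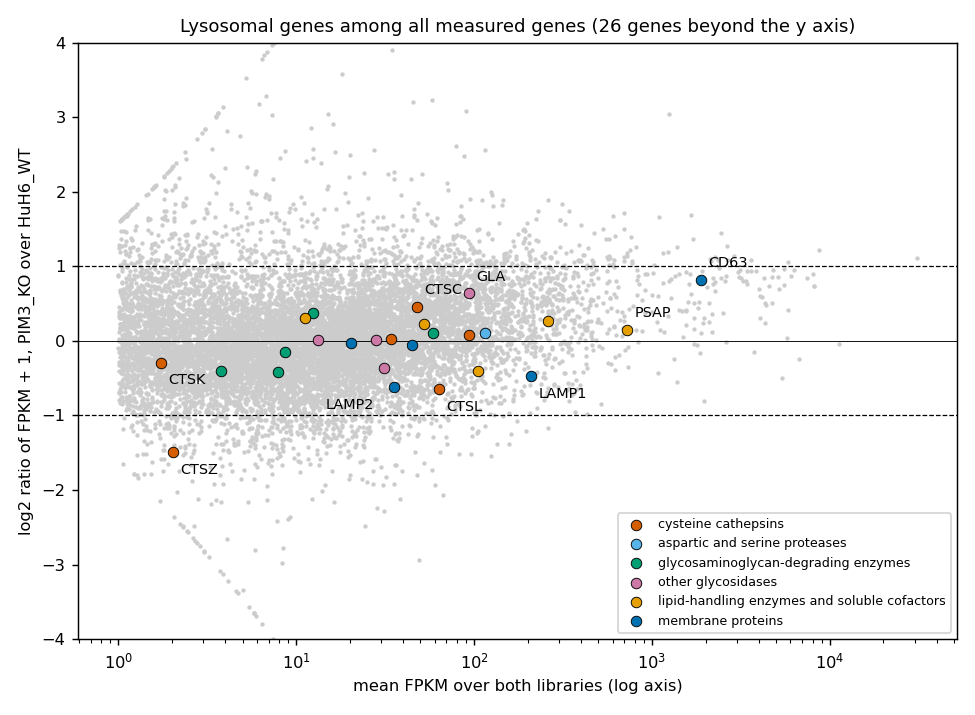
Log2 ratio of FPKM + 1 against mean FPKM on a log axis for all 11253 measured genes (grey) and the 26 measured members (coloured by role), with dashed lines at 2-fold. The members sit between -0.65 and 0.82 except CTSZ at -1.49, and 26 grey genes lie beyond the y axis.

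Levels within the group spanned more than 3 orders of magnitude, far more than the differences between the libraries. CD63, a tetraspanin of lysosomes and exosomes, was the most abundant member in each library and took 40.1% and 53.5% of the summed FPKM of the 28 members. PSAP, the precursor of the saposins that help enzymes reach their lipid substrates, came next. The sum was 3426 FPKM in HuH6_WT and 4526 FPKM in PIM3_KO, and without CD63 it was 2053 and 2104 FPKM. Most of the difference of the FPKM sums was thus that of a single gene. As shares of each library's whole FPKM total the directions turned, with 0.435% in HuH6_WT and 0.417% in PIM3_KO for the 28 members and 0.261% and 0.194% without CD63.

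The cysteine cathepsins are papain-like proteases, and their log2 ratios ran from -1.49 to 0.46. This range rested on CTSZ: with a minimum mean of 5 FPKM, which leaves CTSZ out, it was -0.65 to 0.46, narrower than the -0.62 to 0.82 of the membrane proteins. CTSZ (cathepsin Z, a carboxypeptidase; chromosome 20, from 58995185 to 59007247 in GRCh38) measured 3.46 FPKM in the parental and 0.587 FPKM in the knockout library. It was the member that differed most in ratio, 5.90-fold higher in the parental library, with a log2 ratio of -1.49. PIM3_KO held 16.9% of the parental level. The exact 95% interval ran from 9.64% to 28.4%, on roughly 127 parental and 17 knockout reads as estimated from FPKM. Such intervals cover counting error alone. The 20 measured coding genes nearest to CTSZ were close to equality, at a median of -0.12. CTSZ is a low gene in these cells, and with a pseudocount of 5 or a minimum mean of 5 FPKM it was no longer counted.

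CTSL (cathepsin L, an endopeptidase; chromosome 9, from 87725519 to 87731393) measured 77.5 FPKM in the parental and 48.9 FPKM in the knockout library. This was 63.0% of the parental level (interval 59.9% to 66.4%) and a log2 ratio of -0.65, or -1.11 in TPM. CTSL was thereby lower than CTSH in the knockout library by a wider margin than in the parental one, since CTSH, an aminopeptidase, measured 90.8 and 96.1 FPKM. The pseudogenes of CTSL with a row of their own measured at most 0.551 FPKM. CTSC, the dipeptidyl peptidase that activates granule proteases of leukocytes, went the other way with 40.0 and 55.5 FPKM, a log2 ratio of 0.46. CTSF measured 33.7 and 34.3 FPKM, equal within the counting interval of 94.8% to 109%.

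The cathepsins best known from other cell types were scarce. CTSK, the collagenolytic cathepsin of osteoclasts, measured 2.02 and 1.48 FPKM, with an interval of 50.1% to 104% for the knockout value. CTSS, the cathepsin of antigen-presenting cells, measured 0.585 and 0.761 FPKM, which was below the level required for the counts. Summed over 7 leukocyte and macrophage markers the level was 7.70 and 13.1 FPKM, with MARCO listed at 0 in each library and LYZ highest at 4.46 and 8.21 FPKM. The part of such cells in the CTSS value was not tested. CTSB, usually among the most abundant cathepsins of liver, had rows of 57.4 and 55.1 FPKM and of 6.38 and 7.10 FPKM. The rows differed little between the libraries, with log2 ratios of -0.06 and 0.14.

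Of the aspartic and serine proteases only CTSA had a row of its own, and it showed no difference near 2-fold. CTSA, a serine carboxypeptidase that also protects beta-galactosidase and neuraminidase, measured 111 and 119 FPKM. CTSD, the aspartic protease of the lysosome, shared its row with IFITM10 and measured 372 and 273 FPKM there. TPP1, the tripeptidyl peptidase lost in a form of neuronal ceroid lipofuscinosis, shared its row with TAF10 at 171 and 181 FPKM. Values of joined rows cannot be assigned to a single gene.

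Enzymes that degrade glycosaminoglycans, the sugar chains of proteoglycans, had levels of at most 60.8 FPKM and, on that scale, ratios on both sides of equality. The glucuronidase GUSB measured 56.6 and 60.8 FPKM and the sulfamidase SGSH 10.7 and 14.3 FPKM, a log2 ratio of 0.38. The sulfatase GALNS, at 9.17 and 6.60 FPKM, and the iduronidase IDUA, at 4.42 and 3.10 FPKM, were lower in PIM3_KO with log2 ratios of -0.42 and -0.40. ARSB, arylsulfatase B, measured 9.15 and 8.12 FPKM. Of the 5 measured enzymes 2 were higher and 3 lower, with a median of -0.15. In TPM 0 were higher and 5 lower, with a median of -0.57, beside 73.9% of all measured genes that were lower. The row that holds the iduronate sulfatase IDS measured 16.3 and 10.3 FPKM. The row of NAGLU, an N-acetylglucosaminidase, also holds the coenzyme A synthesis gene COASY and measured 97.1 and 171 FPKM.

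Among the other glycosidases GLA stood highest in the knockout library. GLA, the alpha-galactosidase deficient in Fabry disease (chromosome X, from 101397803 to 101408012), measured 72.5 FPKM in the parental and 114 FPKM in the knockout library. This was 157% of the parental level (interval 149% to 166%) and a log2 ratio of 0.64. It was the second most positive member after CD63 and kept its sign in TPM. GAA, the acid alpha-glucosidase that digests glycogen, measured 35.3 and 27.4 FPKM, a log2 ratio of -0.36. The fucosidase FUCA1 (27.9 and 28.2 FPKM) and the mannosidase MANBA (13.1 and 13.2 FPKM) were equal within their counting intervals. GLB1, the beta-galactosidase used as a stain for senescent cells, stood in a row with TMPPE at 174 and 82.1 FPKM. That row had a log2 ratio of -1.08, which is past the 2-fold threshold, but its share of GLB1 reads is unknown. HEXA, a beta-hexosaminidase subunit, stood in a row with CELF6 and PARP6 at 149 and 111 FPKM.

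Among the 5 measured lipid-handling enzymes and soluble cofactors, 4 were higher on the FPKM scale, beside 5744 of all 11253 measured genes. The median of the 5 was 0.23. PSAP measured 686 and 759 FPKM, and NPC2, which hands cholesterol to the membrane protein NPC1, measured 237 and 286 FPKM. The acid ceramidase ASAH1 measured 47.9 and 56.4 FPKM and the acid sphingomyelinase SMPD1 9.91 and 12.5 FPKM. All 4 were negative in TPM, where they lay between -0.32 and -0.12, above the common shift. PPT1, a thioesterase that removes palmitate from proteins, was lower at 120 and 90.4 FPKM.

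LIPA, the acid lipase of the lysosome, was listed at 0.629 FPKM in HuH6_WT and at 0 in PIM3_KO. On its annotated transcript 3 reads would amount to 0.0523 FPKM in the knockout library, and the parental value to about 46 reads. A listed 0 can be a failed estimate in this table, since the 2 rows of RPL7A and the 7 rows of RPS18, genes of the ribosome that all cells use, were also at 0 in each library. No fold is given for LIPA for that reason.

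The membrane proteins split between the tetraspanin CD63 and the LAMP proteins. CD63 (chromosome 12, from 55725323 to 55729707) measured 1372 FPKM in the parental and 2422 FPKM in the knockout library, 177% of the parental level (interval 174% to 179%) and a log2 ratio of 0.82. LAMP1 (chromosome 13, from 113297241 to 113323672) measured 244 and 176 FPKM, 72.2% of the parental level (interval 70.4% to 74.0%). LAMP2 (chromosome X, from 120427827 to 120469365), the receptor of chaperone-mediated autophagy in its A isoform, measured 43.2 and 27.7 FPKM, 64.2% of the parental level (interval 61.0% to 67.4%). LAMP1 and LAMP2 had log2 ratios of -0.47 and -0.62, and of -0.93 and -1.07 in TPM. The level of CD63 relative to LAMP1 was therefore higher in the knockout library, a statement that no scaling alters. SCARB2, the receptor that brings beta-glucocerebrosidase to the lysosome, measured 45.7 and 43.7 FPKM, and the cholesterol exporter NPC1 20.5 and 20.1 FPKM. MCOLN1, the calcium channel mucolipin 1, stood in a row with PNPLA6 at 49.3 and 111 FPKM, a log2 ratio of 1.15 whose source among the joined genes is unknown.

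On the FPKM scale the counting interval left out equality for most members, though for some by little, as for CTSH (102% to 110%) and SCARB2 (91.9% to 99.4%). Among the 26 measured, the interval of the knockout value lay wholly below the parental level for 10, wholly above it for 11, and included it for CTSF, CTSK, FUCA1, MANBA and NPC1. The same count over all measured genes was not made, so these counts describe no trait of the members. Intervals narrow with more reads, and the median level was 40.1 FPKM for the members against 12.4 FPKM for all measured genes. Since reads of 1 library are no replicates, these intervals compare the 2 libraries and not the conditions. In RNA pooled from a culture, fewer expressing cells and less RNA per cell cannot be told apart.

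Transcript length moved with the ratios, among the members as in the whole table. Across the 26 members Spearman's rho between transcript length and log2 ratio was -0.36, and across 9693 measured coding genes it was -0.38, given as descriptions of genes within the same libraries. For the 13 members with transcripts of up to 2245 bp the ratios had a median of 0.08, and for the 13 longer ones -0.06. CD63 (1233 bp) and GLA (1318 bp) were among the shortest, and after removal of the trend their ratios were 0.47 and 0.31. LAMP1 stayed at -0.47, LAMP2 went from -0.62 to -0.46, CTSL had -0.75 and CTSZ -1.77. NPC2, the shortest at 1035 bp, went from 0.27 to -0.13, and NPC1 (5157 bp) from -0.03 to 0.19.

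**Figure D3:**
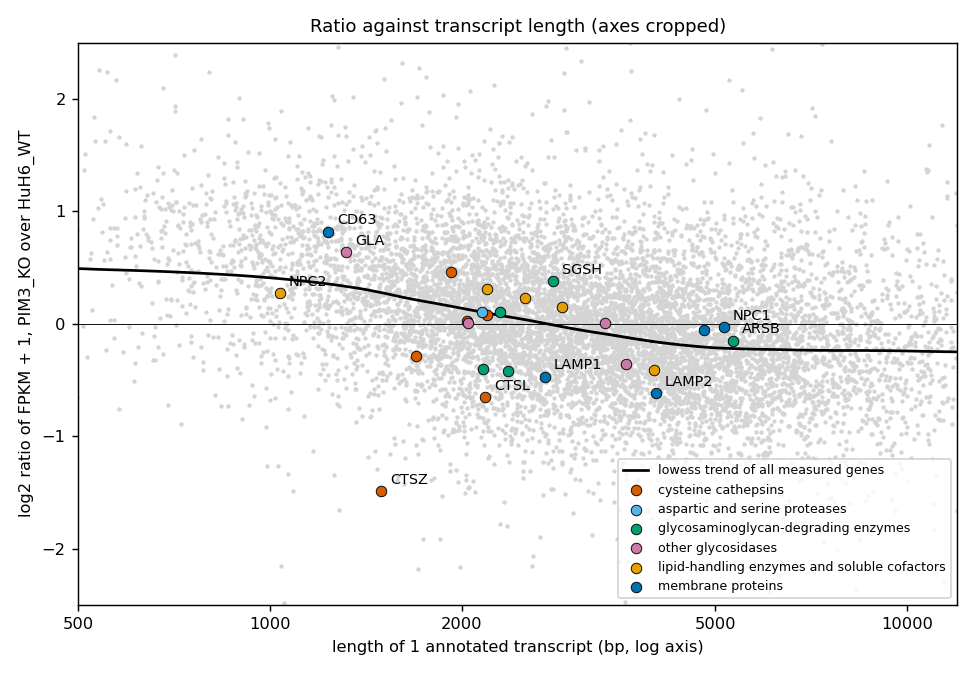
Log2 ratio against the length of 1 annotated transcript on a log axis, for measured coding genes (grey), the 26 measured members (coloured by role) and the lowess trend of all measured genes (line). CD63 lies above the trend by 0.47, while CTSZ lies below it by the most, at -1.77.

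Several members differed from the measured coding genes nearest to them on the chromosome. Of the 20 nearest, the farthest lay 541 kb from CD63 but 7711 kb from GUSB, so the stretches compared differed widely in size. The 20 measured coding genes nearest to SGSH had a median of -0.63 (log2 ratio) while SGSH was at 0.38. GAA, also on chromosome 17, was at -0.36 beside a median of -0.56. The 20 nearest to GUSB were all lower in PIM3_KO, with a median of -0.53, while GUSB was at 0.10. GALNS, LAMP1 and LAMP2 were negative beside medians of 0.51, 0.29 and 0.22. CD63 and GLA were positive beside medians of 0.24 and 0.35, and CTSL was negative beside -0.29. The part of regional differences in these ratios was not tested.

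**Figure D4:**
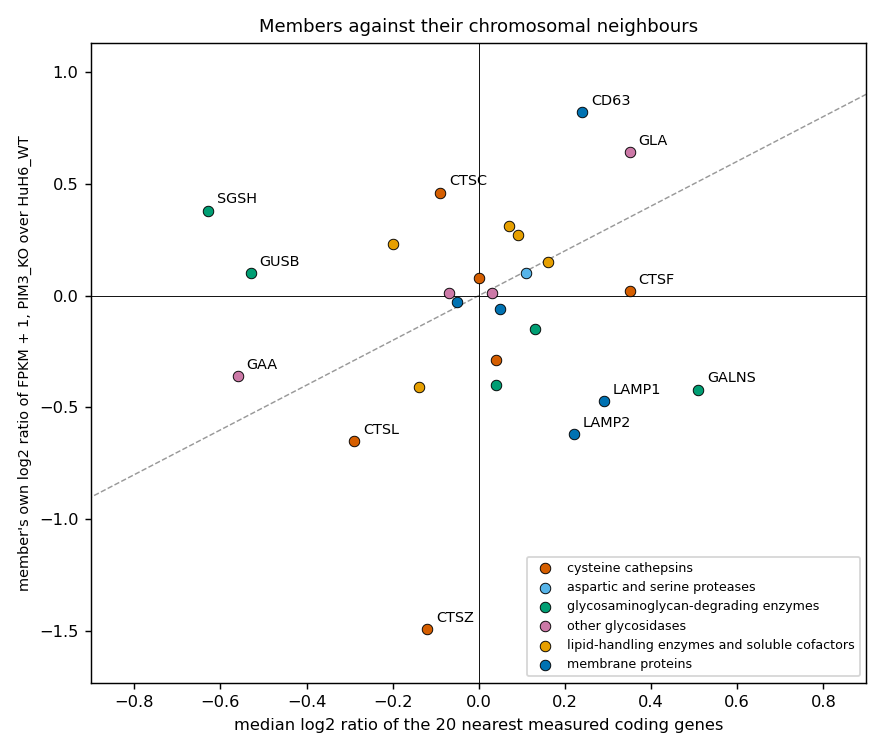
Log2 ratio of each of the 26 measured members (y axis) against the median log2 ratio of its 20 nearest measured coding genes (x axis), coloured by role, with a dashed line of equality. SGSH and GUSB lie to the upper left, with neighbours at -0.63 and -0.53, and LAMP1, LAMP2 and GALNS lie to the lower right.

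Members with the letters CACGTG in a promoter lay on both sides of equality in FPKM. Of the 7 measured ones, 4 were lower and 3 higher, from -0.47 for LAMP1 to 0.82 for CD63, with a median of -0.15. The 13 measured members whose listed promoters lacked the letters ranged from -1.49 to 0.64, with 6 lower, 7 higher and a median of 0.01. In TPM 6 of the 7 with the letters were lower, all but CD63, with a median of -0.57, and so were 11 of the 13 without, with a median of -0.44. Among the 3 members that carry the full 10 letters, GAA and GALNS were lower. The third, MCOLN1, stood only in a joined row, whose log2 ratio of 1.15 cannot be assigned to it. CTSA, with a shorter form, was near equality in FPKM. The factors that act on the CLEAR element differed in direction as well. TFEB measured 8.69 and 12.9 FPKM, TFE3 12.5 and 9.99 FPKM and MITF 8.75 and 8.45 FPKM, while TFEC was listed at 0.0422 FPKM and at 0. In TPM the log2 ratio of TFEB was 0.09 and that of TFE3 -0.73.

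The wider lysosomal system was read from 6 further lists, of which 149 of 195 genes were measured. In these lists 73 genes were higher and 76 lower, with a median of -0.02. The 2-fold threshold was passed upwards by 6 genes and downwards by 8, against the shares of 6.89% and 4.59% over all measured genes. In TPM 25 of the 149 were higher and 124 lower, beside 73.9% of all measured genes that were lower. Past 2-fold in TPM were 3 higher and 31 lower genes, beside 2.87% and 14.4% of all measured genes. In TPM the medians of the 6 lists lay between -0.68 and -0.33, around the common shift of -0.40. The V-ATPase, the proton pump that acidifies the lysosome, had 18 measured subunits and a median of 0.11. None was past 2-fold in FPKM, and in TPM 1 was 2-fold lower, beside 14.4% of all measured genes. The extremes among the subunits were ATP6V1F at 200 and 316 FPKM and TCIRG1 at 19.1 and 28.5 FPKM on the higher side. On the lower side stood ATP6V1C1 with a log2 ratio of -0.88 and ATP6V0A4 at 1.89 and 1.02 FPKM.

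Carriers that bring the enzymes to the lysosome were, among the 6 further lists, the one with the lowest median in FPKM and in TPM, but not after removal of the transcript length trend. Of 26 measured genes of mannose 6-phosphate tagging and sorting, 17 were lower, beside 49.0% of all measured genes, with a median of -0.26. Past 2-fold were 3 lower genes and 0 higher ones, beside 4.59% and 6.89% of all measured genes. In TPM 22 were lower, 8 of them past 2-fold, beside 73.9% and 14.4% of all measured genes. M6PR, the cation-dependent mannose 6-phosphate receptor, measured 148 FPKM in the parental and 63.3 FPKM in the knockout library. IGF2R, the cation-independent receptor, measured 38.4 and 19.7 FPKM, a log2 ratio of -0.93. RAB7A, the GTPase of late endosomes, measured 229 and 95.9 FPKM, and AP3S1, an adaptor subunit, 63.1 and 30.6 FPKM. The retromer subunits VPS35 and VPS26A, which retrieve the receptors, measured 38.4 and 20.1 FPKM and 69.7 and 42.7 FPKM, but their partner VPS29 measured 82.2 and 123 FPKM. On the higher side stood AP3D1 at 45.3 and 87.8 FPKM and AP1M1 at 26.3 and 49.9 FPKM. After that removal the list's median was -0.10, and that of the other lysosomal membrane proteins, -0.26, was lower.

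Hydrolases outside the 36 were split by sign in FPKM about as evenly as the measured members, and in TPM most were lower in each set. Of 25 measured, 12 were higher and 13 lower, beside 14 and 12 of the members. In TPM 4 were higher and 21 lower, beside 3 and 23 of the members and 73.9% of all measured genes that were lower. Within 0.5 of the common shift in TPM lay 60.0% of these hydrolases and 60.1% of all measured genes, against 76.9% of the members. CTSV, the closest relative of CTSL in the human genome, measured 91.4 and 45.0 FPKM, a log2 ratio of -1.01 beside the -0.65 of CTSL, and PLBD2 measured 13.8 and 7.37 FPKM. The gamma-glutamyl hydrolase GGH measured 286 and 563 FPKM, and the tartrate-resistant acid phosphatase ACP5 1.61 and 9.56 FPKM. ACP5 is also an osteoclast marker. Of the other osteoclast markers with 1 row, DCSTAMP and OCSTAMP were listed at 0 in each library, and CALCR measured 0.0106 and 0.0135 FPKM. The part of such cells in the ACP5 value was not tested. Other lysosomal membrane proteins had a median of -0.18, with 10 of 27 higher and 17 lower, beside 49.0% of all measured genes that were lower. In TPM 3 were higher and 24 lower, with a median of -0.63, beside 73.9% lower and a median of -0.40 over all measured genes. Among the extremes were MFSD12 at 19.4 and 43.0 FPKM and SLC29A3 at 5.77 and 10.5 FPKM on the higher side, and MFSD8 at 16.2 and 6.02 FPKM on the lower side.

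Autophagy genes and the regulators of MiT/TFE factors had medians of 0.04 and 0.12. WIPI1, a phosphoinositide-binding autophagy protein, measured 11.6 and 35.2 FPKM and the receptor OPTN 17.0 and 41.5 FPKM, against the fusion protein STX17 at 8.81 and 3.43 FPKM and the kinase ULK1 at 20.9 and 10.4 FPKM. Among the regulators, RRAGD, a Rag GTPase that holds TFEB at the lysosome, measured 11.0 and 0.721 FPKM, and RPTOR 10.8 and 6.09 FPKM. LAMTOR2, a subunit of the Ragulator, measured 90.8 and 205 FPKM. The 8 measured genes of these lists that lie on chromosome 19 (ACP5, AP1M1, AP3D1 and MFSD12 among them) were higher in PIM3_KO. So were 462 of the 678 measured coding genes of that chromosome, whose median was 0.29. PLD3 and DNASE2 turned negative in TPM, at -0.36 and -0.33. Of the 10 on chromosome 3, which include RAB7A, 3 were higher and 7 lower. Of the 553 measured coding genes of chromosome 3, 151 were higher, and their median was -0.29. What part the chromosomes have in the gene values was not tested.

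**Figure D5:**
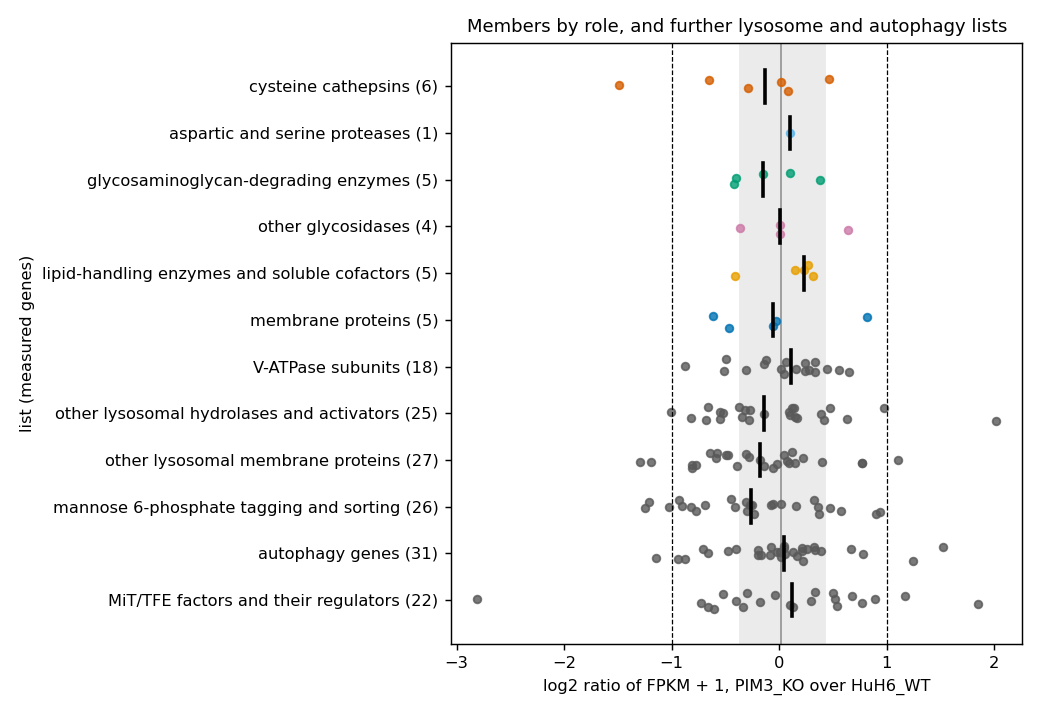
Log2 ratio of FPKM + 1 for each measured gene (points) in the 6 roles of the members (coloured) and in 6 further lysosome and autophagy lists (grey), with black bars for list medians, a shaded band for the middle of all measured genes (quartiles -0.37 and 0.43) and dashed lines at 2-fold. Medians of the lists lie between -0.26 and 0.23.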

How the data were processed

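Poly(A) RNA of 1 HuH6_WT and 1 PIM3_KO culture was sequenced as single-end reads, per the labels' protocols. Per the submitters' processing notes the tools were Cufflinks 2.2.1, STAR 2.7.3a and bcl2fastq 2.18.0.12, with the build GRCh38. Annotation, strand setting and filters were not given in the sources used here. Values are the FPKM that the authors deposited, 1 column for each library.

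Of 62571 rows, 1736 join several symbols and 2375 symbols occur in more than 1 row, and only symbols with 1 row were counted. Ratios are log2 of FPKM + 1, PIM3_KO against HuH6_WT, so that differences between low values come out smaller. A gene was measured when its mean reached 1 FPKM, and 2-fold on this scale was the threshold. Transcript lengths (1 per gene) and positions came from GENCODE 29, and 11070 measured genes had a length. The length trend was a lowess fit (fraction 0.3). Of the 26 measured members, 13 overlap a gene on the other strand.

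For 1-exon genes of 600 to 5000 bp, the product of FPKM and kilobases, after 200 bp were taken off, rose in steps of 0.0353 and 0.045, and 96.5% of values under 20 reads in each library lay within 0.05 of a whole read. Reads of other genes were estimated from these steps, and no count test was run. Intervals are exact (Clopper-Pearson) at 95%.

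The members, lists and tests were chosen with earlier results of these data known. All members are named, with the 2 highest and 2 lowest measured genes of each further list, TFEB, TFE3, MITF, TFEC and PIM3. Of the genes so chosen, 2 are not reported here. AP3S1, IGF2R, VPS26A, VPS29, VPS35, the chromosome 19 genes and the markers named were chosen after their values were seen. The code was tested on simulated data. Analyses used Python 3.11.15, pandas 2.3.3, scipy 1.17.1 and statsmodels 0.14.6.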

Additional observations from a re-analysis of the deposited data

How the results depend on the processing

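The count of members past 2-fold upwards was 0 under each of the 7 planned settings. The count at least 2-fold lower was 0 with a pseudocount of 5 and with a mean of at least 5 FPKM, where the median log2 ratio of the members was 0.02. Rescaling to TPM gave 3 lower members (CTSZ, CTSL and LAMP2), a median of -0.43 and 23 negative ratios, against 14.4% lower among all measured genes. The median was 0.00 after centring and -0.01 after removal of the length trend. Counting joined loci under their member, chosen after seeing the data, gave 1 higher member (the row of MCOLN1) and 2 lower ones (CTSZ and the row of GLB1). The sign changed for 11 of 26 members in TPM, 8 after the length trend and 1 after centring. No paired analysis was possible because each group has 1 library. Estimated reads in HuH6_WT and PIM3_KO were fewest for LIPA (46 and 0), CTSS (65 and 66), CTSK (86 and 49) and CTSZ (127 and 17).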
